A study of Mus musculus with 6 samples.

Results

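Macrophages of fat clear modified lipoproteins, debris and dying adipocytes through surface receptors, and 10 genes of this uptake machinery were followed here, out of 19937 genes measured. They were taken by name: the scavenger receptors *Msr1* and *Marco*, the macrophage glycoproteins *Cd68*, *Cd14* and *Adgre1* (which encodes F4/80 and has the older symbol *Emr1*), the TAM receptors *Tyro3*, *Axl* and *Mertk*, their ligand *Gas6*, and *Cd5l*. All 10 were measured, each by 1 probeset that carries 1 gene symbol. Expression was measured in gonadal white adipose tissue (GWAT) of chow-fed male mice aged 4 months on 6 GeneChip Mouse Gene 1.0 ST arrays, 3 for *ob/ob* mice and 3 for *ob/ob/Fsp27*-/- mice. Both genotypes lack leptin. The *ob/ob/Fsp27*-/- mice also lack *Fsp27* (gene symbol *Cidec*), which encodes a lipid droplet protein, in every tissue. The mice were on a C57BL/6J background, and each array held a pool of RNA from 3 mice, which the study's methods state and the labels do not. The number n therefore counts arrays, and p-values measure the spread between pools rather than between mice. The *ob/ob/Fsp27*-/- mice are also called double-knockout mice here. The comparison asks how loss of Fsp27 changed these genes in the fat of leptin-deficient mice.

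Scavenger receptors bind oxidised lipoproteins, bacterial surfaces and other polyanions and deliver them to lysosomes. Efferocytosis is the uptake of apoptotic cells: bridging proteins such as Gas6 and protein S bind phosphatidylserine on a dying cell and engage the TAM receptor tyrosine kinases on the phagocyte. In obese fat, macrophages gather around dying adipocytes, and several of these receptors are used as their markers.

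Of the 10 genes, 8 were lower in *ob/ob/Fsp27*-/- GWAT and 0 were higher by limma, with 2, *Marco* and *Tyro3*, passing in neither direction. To be called, a gene needed an adjusted p under 0.05 together with a change of 0.5 or more on the log2 scale, in either direction. Across all 19937 genes 10.8% were called lower, 9.58% higher and 20.4% in either direction. At an unadjusted p under 0.05 the number higher was also 0, as it was without moderation of the variances. The arrays of the 2 genotypes did not overlap for the 8 genes called, which was the case for 46.0% of all genes. The median log2 fold change of the 10 genes was −1.64, beside 0.058 over all genes, and 6 of them fell by at least 1 on the log2 scale. The fall ranged from 9.63-fold for *Msr1* to 1.57-fold for *Gas6*.

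**Figure D1:**
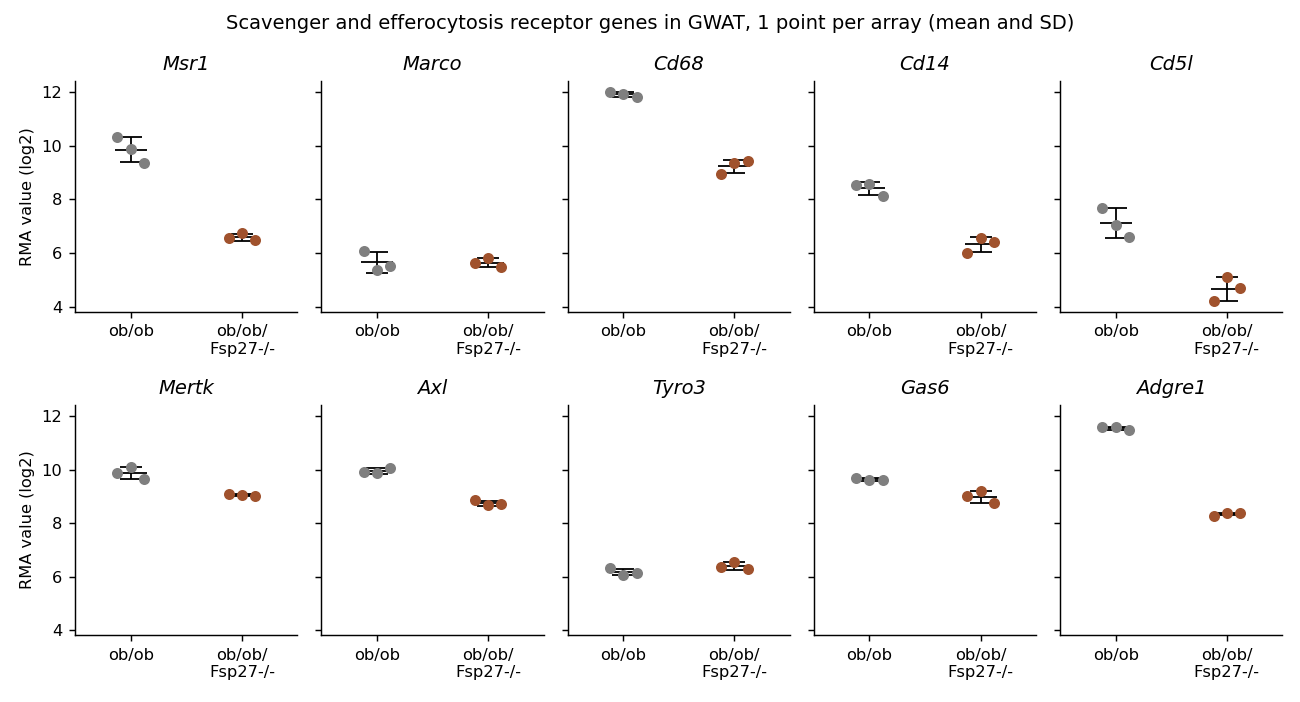
Log2 RMA values of the 10 genes on each array (points; vertical axis) in *ob/ob* (grey) and *ob/ob/Fsp27*-/- mice (brown), with the mean and SD of 3 arrays as lines. The genotypes are apart for 8 genes, by 3.11 between the nearest arrays for *Adgre1* and by 0.41 for *Gas6*, and overlap for *Marco* and *Tyro3*.

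The array and the tissue were checked before single genes were read. Array medians lay between 6.02 and 6.10, and arrays correlated at 0.988 to 0.994 within a genotype and at 0.943 to 0.965 between genotypes. *Cidec* read 11.34 to 11.53 in *ob/ob/Fsp27*-/- and 11.49 to 11.98 in *ob/ob* mice (adjusted p = 0.157, limma), so this probeset does not separate the genotypes, and where its probes lie relative to the deleted part is not given in the sources used here. The 7 adipocyte markers measured had a mean level of 10.74 to 12.13 on every array, and all 5 measured genes of epididymal epithelium lay below the array median. Of 11 macrophage markers measured, which include none of the 10 genes, 10 were lower and 0 higher. Their mean level was 10.68, 10.55 and 10.46 on *ob/ob* arrays and 8.20, 8.40 and 8.30 on *ob/ob/Fsp27*-/- arrays, with *Itgam* falling most (log2 fold change −3.30) and *Cd163* (−0.23, adjusted p = 0.521, limma) not called. In whole tissue, fewer macrophages and less RNA of a gene per macrophage cannot be told apart. In the opposite direction, 5 of 7 adipocyte markers were called higher, from 10.74 to 11.65 in *ob/ob* to 12.10 to 12.13 in *ob/ob/Fsp27*-/- mice, though 0 were called without moderation of the variances and only *Adipoq* stayed called when double-knockout array 2 or 3 was left out. With *ob/ob* array 2 left out 2 of the adipocyte markers were called, and with double-knockout array 1 left out 3 were. *ob/ob* array 1 had the highest macrophage and the lowest adipocyte level of its genotype.

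*Msr1* encodes the class A scavenger receptor of macrophages, which takes up acetylated and oxidised lipoproteins. It read 10.33, 9.88 and 9.37 on the *ob/ob* arrays and 6.57, 6.73 and 6.47 on the *ob/ob/Fsp27*-/- arrays. Every *ob/ob* array thus lay at least 2.64 above every *ob/ob/Fsp27*-/- array, although the *ob/ob* arrays differed more among themselves, with array 1 highest. The means were 9.86 ± 0.48 and 6.59 ± 0.13 (SD, n = 3), a log2 fold change of −3.27 (95% confidence interval −3.80 to −2.74, adjusted p = 0.000126, limma). Among all genes ranked from the largest decrease, *Msr1* stood at 54. Leaving out *ob/ob* array 1 gave −3.04. The *ob/ob/Fsp27*-/- values lay not far above the array medians of 6.02 to 6.10, so the size of the fall is less sure than its direction.

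*Marco*, the other class A receptor of the group, binds bacteria and particles and is best known from alveolar and marginal zone macrophages. It read 6.09, 5.37 and 5.51 in *ob/ob* and 5.64, 5.80 and 5.48 in *ob/ob/Fsp27*-/- mice. All 6 values lay below the median of their own array, and the genotypes overlapped. The log2 fold change was −0.02 (95% confidence interval −0.47 to 0.43, adjusted p = 0.951, limma), an interval that holds no change of the size used for a call. Its sign depended on *ob/ob* array 1, without which it was 0.20, and on *ob/ob/Fsp27*-/- array 3, without which it was 0.063. The reading of *Msr1* minus that of *Marco* within an array shrank from 4.201 ± 0.33 to 0.95 ± 0.037 (SD, n = 3). With *Marco* below the array median throughout, this restates the fall of *Msr1* and says little about *Marco*.

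*Cd68* encodes macrosialin, a heavily glycosylated lysosomal protein of the LAMP family that serves as a general macrophage marker. The *ob/ob* arrays read 12.02, 11.95 and 11.81, and the *ob/ob/Fsp27*-/- arrays read 8.95, 9.34 and 9.42. The groups were far apart, and *ob/ob/Fsp27*-/- array 1 was lowest. The log2 fold change was −2.68 (95% confidence interval −3.00 to −2.37, adjusted p = 4.06e-05, limma), a 6.43-fold decrease, at rank 112.

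*Adgre1*, an adhesion G protein-coupled receptor whose product F4/80 marks mouse tissue macrophages, had the smallest standard error of the 10 log2 fold changes, 0.076. It read 11.58, 11.58 and 11.48 in *ob/ob* and 8.28, 8.37 and 8.37 in *ob/ob/Fsp27*-/- mice. No array of a genotype lay more than 0.0998 from another of the same genotype. The log2 fold change was −3.21 (95% confidence interval −3.39 to −3.03, adjusted p = 7.82e-06, limma), a 9.24-fold decrease, at rank 56. The difference between *Cd68* and *Adgre1* grew by 0.52 from *ob/ob* to *ob/ob/Fsp27*-/- mice, so *Cd68* fell less than *Adgre1* on these probesets.

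*Cd14* encodes the co-receptor that hands lipopolysaccharide (LPS) to Tlr4 and that also binds apoptotic cells. It read 8.54, 8.57 and 8.14 on *ob/ob* arrays, against 6.004, 6.56 and 6.41 on double-knockout arrays. The genotypes did not overlap, and *ob/ob/Fsp27*-/- array 1 again read lowest, just below the median of its array. The log2 fold change was −2.09 (95% confidence interval −2.50 to −1.68, adjusted p = 0.000255, limma), a 4.26-fold decrease. With the *ob/ob/Fsp27*-/- values near the array median, where there is little signal over background, this decrease may read smaller than it was.

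*Cd5l*, a secreted scavenger receptor cysteine-rich protein (AIM) made by tissue macrophages and known to protect them from apoptosis, read 7.70, 7.07 and 6.58 in *ob/ob* mice. On *ob/ob/Fsp27*-/- arrays it read 4.21, 5.09 and 4.69. It was the most variable of the 10 genes in both genotypes, with SDs of 0.56 and 0.44 (n = 3), and passed below the array median in all 3 *ob/ob/Fsp27*-/- pools. The log2 fold change was −2.45 (95% confidence interval −3.20 to −1.71, adjusted p = 0.00145, limma). Without *ob/ob* array 1, where *Cd5l* as well as *Msr1* was highest, it was −2.16. Values below the array median carry little signal over background, so the size of this decrease may also read smaller than it was.

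Of the 3 TAM receptors, *Axl* and *Mertk* fell, and *Tyro3*, which read near the array median, was not called. *Axl*, which mediates uptake and dampens inflammation in macrophages and is also made by stromal cells, read 9.91, 9.86 and 10.05 in *ob/ob* and 8.86, 8.66 and 8.71 in *ob/ob/Fsp27*-/- mice. Every *ob/ob* array lay at least 1.003 above every double-knockout array, with a log2 fold change of −1.20 (95% confidence interval −1.41 to −0.98, adjusted p = 0.000189, limma). *Mertk*, the main receptor for apoptotic cells on resident macrophages, read 9.89, 10.08 and 9.66 in *ob/ob* and 9.08, 9.05 and 9.02 in *ob/ob/Fsp27*-/- mice. The *ob/ob/Fsp27*-/- pools were nearly equal, and the spread lay in the *ob/ob* pools. *Mertk* fell by 0.82 on the log2 scale (95% confidence interval −1.10 to −0.55, adjusted p = 0.00205, limma), a 1.77-fold decrease. *Tyro3*, which is best known from the nervous system, read 6.32, 6.07 and 6.16 in *ob/ob* and 6.38, 6.55 and 6.29 in *ob/ob/Fsp27*-/- mice. These values lay close to the array medians of 6.02 to 6.10, with 5 of the 6 above the median of their own array. At this level there is little signal over background, so they say little on whether *Tyro3* changed. The lowest *ob/ob/Fsp27*-/- array lay under the highest *ob/ob* array, and the log2 fold change of 0.22 did not pass (95% confidence interval −0.02 to 0.47, adjusted p = 0.162, limma).

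Within an array, the difference between *Axl* and *Tyro3* shrank from 3.76 ± 0.16 to 2.34 ± 0.19 (SD, n = 3), and that between *Mertk* and *Tyro3* from 3.69 ± 0.28 to 2.65 ± 0.13 (SD, n = 3). With *Tyro3* not called and near the array median, these spacings mainly restate the falls of *Axl* and *Mertk*. *Mertk* minus *Axl* changed by 0.37, since *Axl* fell more. Each of the 7 spacings compared kept the genotypes apart, with a two-sided exact permutation p of 0.1 (also 0.1 after adjustment), the smallest that 3 against 3 arrays allow, so none could pass a threshold of 0.05.

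*Gas6*, the vitamin K-dependent ligand that engages all TAM receptors, read 9.70, 9.60 and 9.62 in *ob/ob* and 9.02, 9.20 and 8.76 in *ob/ob/Fsp27*-/- mice. It had the smallest decrease of the genes called, and the *ob/ob/Fsp27*-/- pools varied more than the *ob/ob* pools. The log2 fold change was −0.65 (95% confidence interval −0.93 to −0.37, adjusted p = 0.00662, limma). *Gas6* minus *Axl* changed by 0.55, the ligand falling less than its receptor. When arrays were centred on housekeeping genes, which moved the median of all genes to 0.25, the log2 fold change of *Gas6* was −0.45 and no longer reached 0.5, and that of *Marco* turned to 0.18.

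**Figure D2:**
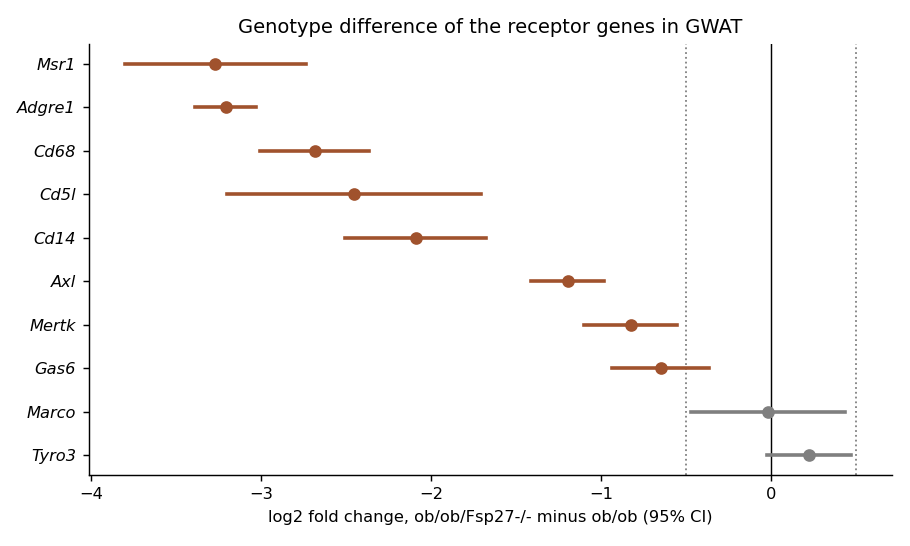
Log2 fold change (horizontal axis, *ob/ob/Fsp27*-/- minus *ob/ob*) of each gene with its 95% confidence interval from limma, brown where called and grey where not; dotted lines mark a change of 0.5 in either direction. *Msr1*, *Adgre1*, *Cd68*, *Cd5l* and *Cd14* lie below −2, *Axl*, *Mertk* and *Gas6* between −1.20 and −0.65, and the intervals of *Marco* and *Tyro3* include 0.

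The decreases were next set against that of the 11 macrophage markers, whose mean fell by 2.26 on the log2 scale. In this measure each gene's value on an array is taken minus the mean of the markers on the same array. A positive shift means a smaller decrease than that of this mean. Single markers changed by −0.23 (*Cd163*) to −3.30 (*Itgam*), and *Itgam* and *Ctss* (−3.27) fell at least as far as *Msr1* (−3.27). *Msr1* fell further than the mean of the markers, with a shift of −1.01. Relative to that mean it read −0.35, −0.66 and −1.09 in *ob/ob* and −1.63, −1.67 and −1.83 in *ob/ob/Fsp27*-/- mice. *Adgre1* shifted by −0.95 and *Cd68* by −0.43. *Cd5l* (−0.19, permutation p = 0.6, exact and two-sided) and *Cd14* (0.17, p = 0.3) overlapped between genotypes. Both read near or below the array median in *ob/ob/Fsp27*-/- mice, so background may limit how far their shifts could go down. *Axl* (1.06), *Mertk* (1.43) and *Gas6* (1.61) fell less than the mean of the markers. The values of *Marco* (2.24) and *Tyro3* (2.48), which were not called, mainly restate the fall of the markers. This holds the more as *Marco* lay below the array median throughout and *Tyro3* close to it. For the 8 genes that did not overlap, p was 0.1 by the exact permutation test (0.125 after adjustment over 10 genes), again the smallest possible.

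Part of this order depends on the reference. With *Csf1r*, the receptor for macrophage colony-stimulating factor, as the only marker, the shift of *Cd68* was −0.94, that of *Cd14* was −0.35 and that of *Cd5l* was −0.71. Set against the median of the marker levels on each array they were 0.21, 0.80 and 0.44. That median fell on *Csf1r* on the *ob/ob* arrays but on *Ctss* or *Ptprc* on the *ob/ob/Fsp27*-/- arrays. It therefore does not follow any single marker. The median of the markers' own log2 fold changes was −2.27, beside −2.68 for *Cd68*, −2.45 for *Cd5l* and −2.09 for *Cd14*. The sign of these 3 genes thus depends on how the reference is built. That of *Cd5l* also turned (0.040) against the mean of the markers without *ob/ob* array 1. The other 7 genes kept their direction under each reference: *Msr1* lay between −1.52 and −0.37, *Adgre1* between −1.46 and −0.31, *Axl* between 0.55 and 1.70 and *Mertk* between 0.92 and 2.07. The upper end of each range came from the median of the levels, and so from the change of reference gene. Stromal fibroblasts, which can also express *Axl* and *Gas6*, had 5 of 8 markers lower (3 without moderation of the variances) and 0 higher, with a mean level of 10.06 to 10.13 in *ob/ob* and 9.12 to 9.47 in *ob/ob/Fsp27*-/- mice. The part of macrophage and stromal content in these shifts was not tested.

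**Figure D3:**
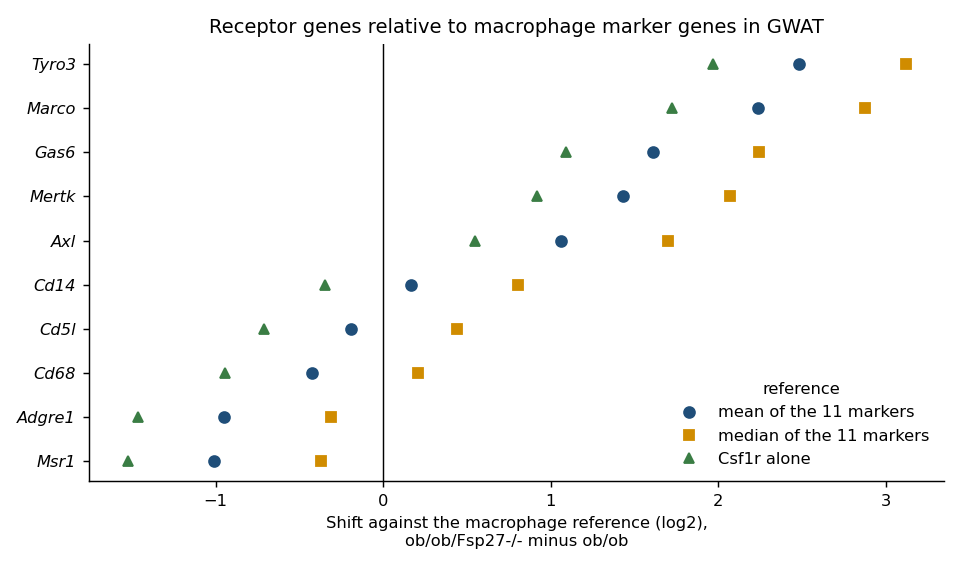
Shift of each gene against macrophage markers (horizontal axis, log2, *ob/ob/Fsp27*-/- minus *ob/ob*), with the mean of the 11 markers (circles), the median of their levels on each array (squares) or *Csf1r* alone (triangles) as reference. The gene at that median differs between the genotypes. *Msr1* and *Adgre1* stay below 0 with each reference, *Axl*, *Mertk*, *Gas6*, *Marco* and *Tyro3* stay above 0, and *Cd68*, *Cd5l* and *Cd14* cross it.

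For each gene the 3 genes with the most similar profile were found, by Euclidean distance over the 6 arrays after centring each gene on its mean. The genes nearest to *Msr1* were *Cd200r4* (distance 0.19 in log2 units), *Dcstamp* and *Itgam*, and those nearest to *Adgre1* were *Slc37a2* (0.22), *C3ar1* and *Nckap1l*. *Cd68* was nearest to *P2ry6* (0.24), *Casp1* and *Ccl6*, *Cd14* to *Plau* (0.24), *Gusb* and *Creg1*, and *Cd5l* to *Alox5ap* (0.37), *Apbb1ip* and *Prkcb*. All of these neighbours were themselves called lower. *Mertk* was nearest to *Pgm2l1* (0.10), *Zfp677* and *Mier1*, *Axl* to *Arhgap9* (0.15), *Arhgap22* and *Fgd3*, and *Gas6* to *Ssh3* (0.13), *Iqgap3* and *Lmnb1*. *Marco* had *Il21r* (0.11), *Ednrb* and *Csmd1* nearest, and *Tyro3* had *Pnpla1* (0.062), *Kcnk15* and *Siglecg*, none of which was called. With 6 arrays in 2 genotypes, these distances mostly reflect the genotype difference.

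The promoters of the genes were read for 3 short motifs, since several of the genes moved together. RefSeq promoter windows (GRCm38.p6, 250 bases before to 50 after the start, 32851 windows) covered 7 of the 10 genes, without *Msr1*, *Adgre1* and *Cd14*. The core of the site of PU.1, the transcription factor that specifies macrophages, was searched as GAGGAAG on both strands, which on the other strand reads CTTCCTC. It was found in 3 of the 7 genes and in 13.6% of all windows. The AP-1 site TGACTCA, which on the other strand reads TGAGTCA, was present in *Cd68* and in 5.20% of all windows. The E-box of TFE and MITF factors, TCACGTG or on the other strand CACGTGA, occurred in 0 of 7 and in 3.77% of all windows. No window of these genes held more than 1 of the motifs. The stretches around the matches are given 5′ to 3′ on the strand of the gene, with the matched letters in capitals, to show where they lie: *Marco* at chr1:120505134-120505200 (minus strand), *Cd5l* at chr3:87357784-87357850 (plus strand), *Axl* at chr7:25788828-25788894 (minus strand) and *Cd68* at chr11:69666171-69666349 (minus strand).
Marco: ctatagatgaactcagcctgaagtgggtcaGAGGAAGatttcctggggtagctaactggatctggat
Cd5l: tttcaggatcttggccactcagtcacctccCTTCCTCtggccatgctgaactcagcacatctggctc
Axl: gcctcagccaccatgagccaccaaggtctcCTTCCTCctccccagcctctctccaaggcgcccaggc
Cd68: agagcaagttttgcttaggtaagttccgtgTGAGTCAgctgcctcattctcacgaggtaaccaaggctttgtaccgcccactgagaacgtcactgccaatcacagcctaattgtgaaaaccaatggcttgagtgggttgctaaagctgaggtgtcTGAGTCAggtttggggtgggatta
The PU.1 letters lay in *Cd5l* and *Axl*, which fell, and in *Marco*, which did not pass the test. In *Cd68* the AP-1 letters occurred at positions −149 and −24, counted from the start. A match of letters is a description of the sequence and was not tied to binding in these mice.

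Other scavenger and related uptake receptors were then counted. Of 20 measured, 8 were lower, 2 higher and 10 not called, and the median change was −0.16 on the log2 scale. Those that fell were led by *Clec7a*, the beta-glucan receptor Dectin-1 (−2.75), and *Mrc1*, the mannose receptor (−1.68), followed by *Cxcl16* (−1.49), *Lrp1* (−1.28), *Stab1*, encoding the endocytic receptor stabilin-1 (−1.17), *Colec12* (−1.13), *Ssc5d* (−0.74) and *Scara3* (−0.54). The call of *Scara3* was lost without any of 5 of the 6 arrays, the exception being *ob/ob* array 2. *Olr1*, the lectin-like receptor for oxidised low-density lipoprotein, went the other way, from 8.22 ± 0.21 to 9.24 ± 0.27 (SD, n = 3), and so rose by 1.02 (adjusted p = 0.00378, limma). *Scarb1*, the receptor for high-density lipoprotein, rose by 0.53 (adjusted p = 0.0185, limma). This call was lost, leaving 1 gene called higher, when *ob/ob* array 1 or 2 was left out, and likewise for double-knockout array 2 or 3. *Cd36*, the fatty acid transporter that adipocytes also express strongly, read 12.87 ± 0.088 and 12.75 ± 0.081 (SD, n = 3) and was not called (log2 fold change −0.12, adjusted p = 0.351, limma), nor was the haemoglobin scavenger receptor *Cd163*.

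Of 32 other genes of apoptotic cell uptake, 16 were lower, 0 higher and 16 not called by limma, with a median log2 fold change of −0.57. At an unadjusted p under 0.05, with no fold threshold, 2 were higher, *P2ry2* and *Timd4*, and *P2ry2* was called (0.53) without *ob/ob* array 1. *Cd300lb*, a receptor of the CD300 family, had the largest decrease (−3.65, 12.5-fold), followed by the signalling adaptor *Tyrobp* (−2.88), the NADPH oxidase subunit *Cybb* (−2.83), *Dock2*, an activator of Rac (−2.82), the phosphatidylserine receptor *Havcr2* (−2.54), *Trem2*, a lipid receptor that signals through Tyrobp (−2.14), *C1qb* (−2.12) and *Anxa1* (−2.11). *Tyrobp* and *Cybb* are also among the macrophage markers. All 3 chains of complement C1q, an opsonin for dying cells, fell by 1.62 or more on the log2 scale. *Mfge8*, the bridging protein for integrins, was not called (−0.22, adjusted p = 0.140, limma), while *Itgav* (−1.20) and *Itgb3* (−0.69), which encode an integrin that it engages, were lower. The call of *Itgb3* was lost when array 1 or array 3 of either genotype was left out. *Timd4*, the phosphatidylserine receptor of resident macrophages, read 5.67 ± 0.21 and 5.97 ± 0.11 (SD, n = 3). Its log2 fold change was 0.31 (adjusted p = 0.106, limma), and both means lay below the array medians, where values carry little signal. The broadly expressed engulfment genes *Dock1* (−0.45), *Rac1* (−0.28) and *Crk* (−0.25) passed the adjusted p but not the fold threshold, beside their haematopoietic relatives *Dock2* and *Rac2* (−2.10), which were called.

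Among 7 measured ligands and regulators of the TAM receptors, 4 were lower and 0 higher by limma (0 also at an unadjusted p under 0.05), with a median log2 fold change of −0.53. *Pros1*, which encodes protein S, the other TAM ligand, read 9.97 ± 0.087 in *ob/ob* and 8.24 ± 0.25 in double-knockout mice (SD, n = 3). Its log2 fold change was −1.73 (adjusted p = 0.000190, limma), beside −0.65 for *Gas6*. *Pros1* is also counted among the genes of apoptotic cell uptake. *Adam17* (−1.04) and *Adam10* (−0.91), the proteases that shed Mertk and Axl from the cell surface, were also lower. *Ifnar1*, the interferon receptor chain that TAM signalling uses, was lower by −0.53, a call that was lost when *ob/ob* array 1 was left out, or double-knockout array 2. *Socs1* (0.01), *Socs3* (−0.31) and *Twist1* (0.33), which TAM signalling induces, were not called.

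For the genes that act with *Cd14* in LPS recognition, 9 of 13 were lower and 0 higher by limma (0 also at an unadjusted p under 0.05), with a median log2 fold change of −0.83. *Cd180* (−3.01) and its partner *Ly86* (−2.25), which form a relative of the Tlr4 complex on myeloid and B cells, had the largest decreases. *Tlr4*, the signalling receptor, fell by 1.24 on the log2 scale (adjusted p = 0.000849, limma), and its partner *Ly96* by 1.07 (adjusted p = 0.0202), though the call of *Ly96* was lost when *ob/ob* array 2 or 3 was left out, and also for double-knockout array 1 or 2. *Tlr6* (−1.60), the adaptors *Ticam2* (−1.52), *Myd88* (−0.83) and *Tirap* (−0.70), and *Tlr2* (−0.82) were lower. *Lbp* (−0.16), the plasma protein that loads LPS onto Cd14, *Ticam1* (−0.32), *Irak1* (−0.14) and *Traf6* (−0.06) were not called.

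Liver X receptors are nuclear receptors for oxysterols that induce *Mertk* and *Cd5l*, and genes of their cholesterol response moved in both directions. Of 10 measured, 3 were lower, 4 higher and 3 not called, with a median log2 fold change of 0.34. *Nr1h3*, the gene of the receptor LXR alpha, read 8.86 ± 0.27 in *ob/ob* and 9.69 ± 0.18 in double-knockout mice (SD, n = 3), an increase of 0.83 on the log2 scale (adjusted p = 0.00697, limma). Its partner *Rxra* (0.74) and the lipid synthesis genes *Srebf1* (1.37) and *Lpcat3* (0.60) were also higher. The cholesterol exporter *Abcg1* (−1.33), *Pltp* (−1.11) and *Apoe* (−0.51) were lower, although *Apoe* missed the fold threshold when *ob/ob* array 2 was left out, or double-knockout array 3. *Abca1* (0.23, adjusted p = 0.0638, limma) and *Lpl* (0.07) were not called, and *Mylip* (0.45) was called higher without *ob/ob* array 3. *Mertk* and *Cd5l* thus fell in tissue where *Nr1h3* was higher, and which cells carried each RNA was not measured.

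Of 8 relatives of F4/80 and of the LAMP family, 2 were lower and 1 higher, with a median log2 fold change of −0.05. *Adgre4* (−1.54) and *Adgre5* (−0.89), the adhesion receptors closest to *Adgre1*, were lower, and the latrophilin gene *Adgrl2* (0.68) was higher. *Lamp1* (−0.09) and *Lamp2* (−0.41), lysosomal membrane proteins of most cells and relatives of Cd68, were not called, whereas *Cd68* fell by 2.68.

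**Figure D4:**
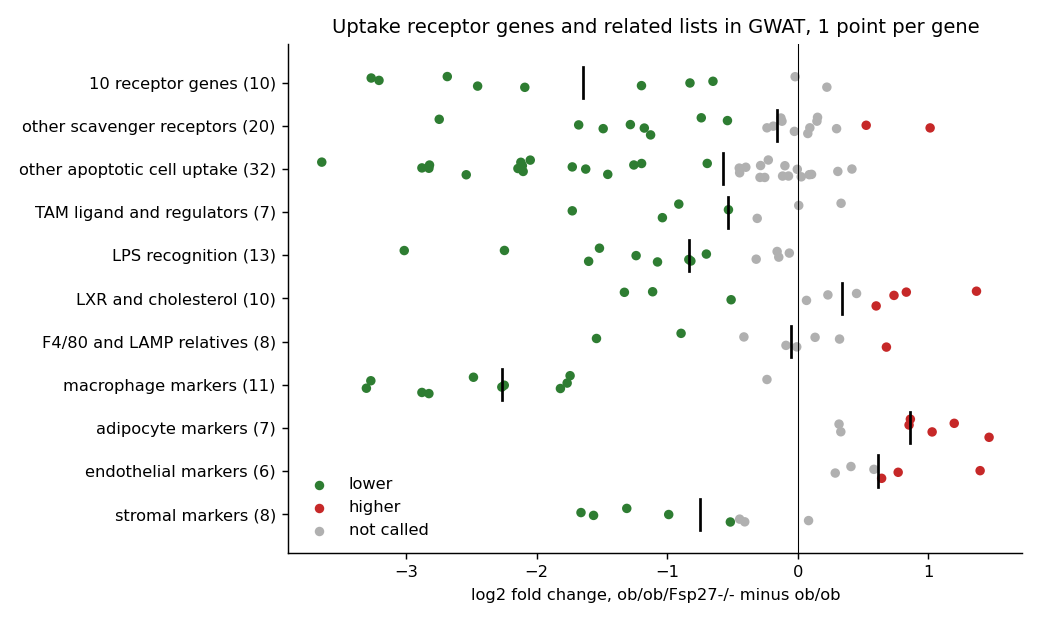
Log2 fold change (horizontal axis, *ob/ob/Fsp27*-/- minus *ob/ob*) of each measured gene of the 10 receptor genes, of related lists and of 4 cell type marker lists, with the number of genes in parentheses; colours give the call and black bars the list medians. Medians run from −2.27 for macrophage markers and −1.64 for the 10 genes to 0.86 for adipocyte markers.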

How the data were processed

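GWAT RNA from 6 arrays was analysed, 3 per genotype as the labels give them. Per the labels, RNA went through 2 rounds of amplification before labelling, and how this affects fold changes was not tested. The authors deposited log2 values, made by RMA with background adjustment, quantile normalization and a summary per transcript cluster. The sources used here give neither the versions of their tools nor a genome build, and their filter on detection above background was not repeated.

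Tests covered the 22961 of 34760 probesets that have a gene symbol (1321 have several), leaving out 11799. Symbols of 21553 probesets were updated by Entrez number with the RefSeq GRCm38.p6 table, and the probeset with the highest mean stood for each of the 19937 genes. The contrast was fitted with limma 3.58.1 under R 4.3.3 (lmFit, eBayes, no covariates) and Benjamini-Hochberg adjustment over tested probesets, calling at 0.05 and a log2 fold change of 0.5, as in the study's methods. Exact permutation tests used scipy 1.17.1 and figures matplotlib 3.10.9.

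The 10 genes, the lists and the tests were chosen with earlier results of these data known. Named were all 10 genes, up to 8 called genes per list with the largest change, a few fixed genes such as *Pros1*, *Tlr4* and *Nr1h3*, and the nearest profiles; further list members given in the text were named after their values were seen. Some listed genes are not reported here.

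In simulated data with 22961 probesets for this comparison, 16 of 80 changes of 0.5 on the log2 scale were recovered. Of changes of 1, 43 of 54 were recovered, and of changes of 2, 64 of 66, with 9 false calls. A true change of 0.5 sits at the fold threshold, which by itself limits its recovery. The share of changed probesets was far below the 20.4% of genes called in the data, so recovery there may differ. The alternatives were filters on level, all probesets, other centring and normalization, variance models, array weights, fold thresholds, no moderation, averaging of probesets, other macrophage references and leaving out each array.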

Additional observations from a re-analysis of the deposited data

How the results depend on the processing

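The number of the 10 genes called lower stayed between 6 and 8 under the 19 alternatives, and 0 were called higher in any. It was 6 at a log2 fold change of at least 1, where *Mertk* (−0.82) and *Gas6* (−0.65) missed the threshold, and 7 when arrays were centred on housekeeping genes, where *Gas6* was −0.45 (adjusted p = 0.0361, limma), or when probesets under the median of all values were left out, which removed *Cd5l* and *Marco*. *Marco*, never called, ranged from −0.16 to 0.20 on leaving out single arrays and turned to 0.18 with housekeeping centring, 0.11 with array weights, 0.20 without *ob/ob* array 1 and 0.063 without *ob/ob/Fsp27*-/- array 3. *Tyro3* ranged from 0.15 to 0.42 and was not called in any alternative. Over all genes, 1607 were called at a log2 fold change of at least 1, against 4068, and 5988 without a fold threshold. Housekeeping centring gave 3421 higher and 1512 lower against 1910 and 2158, with reference genes that themselves had a lower mean level in double-knockout mice. Leaving out 1 array gave 3589 to 4466 in all. Centring on housekeeping genes brought the genes called higher to 2 for apoptotic cell uptake, 1 for TAM regulators and 2 for relatives of F4/80. Without a fold threshold, 1 uptake gene was higher. At a log2 fold change of at least 1, the counts were 1 higher for other scavenger receptors, 2 lower for TAM regulators, 1 higher for the liver X receptor list, and 1 lower and 0 higher for relatives of F4/80. Scavenger receptors called higher were 1 without moderation of the variances and 1 to 2 on leaving out single arrays, and uptake genes 0 to 1. The list counts under alternatives and the leave-out of arrays from the spacings were added after seeing the data. No paired analysis was possible because the genotypes share no replicate number in the labels. Precision is limited by 3 arrays per genotype, and values under or near the array median, as for *Marco* and *Tyro3*, carry little signal over background. In *ob/ob/Fsp27*-/- mice this also holds for *Cd5l* and *Cd14*, and *Msr1* lay not far above, which limits the sizes of their decreases.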

Other observations

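Markers of other cell types were counted beside the macrophage list. Mast cells, which store proteases in granules, had 4 of 6 markers lower (1 without moderation of the variances) and 0 higher, with a mean level of 6.86 to 7.84 in *ob/ob* and 5.85 to 6.28 in *ob/ob/Fsp27*-/- mice. The mast cell carboxypeptidase *Cpa3* fell most (log2 fold change −2.98, adjusted p = 0.00258, limma), and the chymase *Cma1* lost its call when array 2 of either genotype was left out. Of 6 dendritic cell markers, *Clec9a* (−0.68) and *Xcr1* (−0.56), both of cross-presenting dendritic cells, were called lower (1 of them without moderation). *Xcr1* was lost on leaving out any array other than *ob/ob/Fsp27*-/- array 2. By their mean over the 6 arrays, 4 of the 6 markers lay below the array median, *Clec9a* and *Xcr1* among them. Endothelial markers had 3 of 6 called higher, led by the receptor *Kdr* (1.40), and 2 without moderation. Among them *Cdh5* (0.64) lost its call when *ob/ob* array 1 or any single *ob/ob/Fsp27*-/- array was left out. In the neutrophil list 1 of 8 was called higher, the calgranulin *S100a8* (0.83), a call lost without *ob/ob/Fsp27*-/- array 2 or 3 and without moderation. The other 7 neutrophil markers lay below the array median by their mean.

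None of 7 T cell and none of 6 B cell markers was called by limma. By their mean over the 6 arrays, 6 of the 7 T cell and 5 of the 6 B cell markers lay below the array median. Values there carry little signal, so these counts say little about the cells. At an unadjusted p under 0.05, 1 T cell gene was lower and 5 B cell genes were higher, and 0 of either list passed without moderation of the variances. When *ob/ob/Fsp27*-/- array 1 was left out, *Cd79a*, *Cd79b*, *Cr2*, *Fcer2a* and *Ms4a1* were called higher. Without *ob/ob* array 3, *Cd3g* was called lower (−1.18). The 5 epididymal genes gave 0 calls, and 0 at an unadjusted p under 0.05.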
